A study of Mus musculus with 12 samples.

Results

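Lactate is formed and consumed by lactate dehydrogenase and crosses the cell membrane through monocarboxylate carriers, and 5 genes of this machinery were followed here by name among 12081 listed genes. All 5 were present. Ldha and Ldhb encode the subunits of the tetrameric enzyme. Slc16a1 and Slc16a3 encode the proton-coupled carriers MCT1 and MCT4, and Bsg encodes basigin, the membrane glycoprotein that escorts both carriers to the cell surface. RNA was sequenced in 12 libraries of mouse primary hepatic stellate cells, isolated from liver by density gradient, with 3 libraries in each of 4 groups. All groups carried the Hk2 fl/fl genotype, in which Cre recombinase can remove part of the gene of hexokinase 2, an enzyme at the entry of glycolysis. Quiescent cells (QS) were freshly isolated and untreated. Activated cells (ACT) had received an adenovirus for eGFP (labelled Ad-GFP), Hk2-deleted cells (KO) one for Cre fused to eGFP (Ad-Cre), and both were cultured for 6 days in medium with 1000 mg/L glucose and 10% fetal bovine serum. The fourth group (LAC) was KO cells given 10 mM lactate for 24 h. The labels give no age, sex or number of animals and do not say whether replicates are distinct animals or dishes. The p-values therefore cover the spread among these libraries only, and that spread may be technical. QS cells met neither culture nor virus, and Cre was present in every KO and LAC library and in no other. The labels also do not say whether KO and LAC cells came from the same isolation. Markers of other cells differed between these groups, as given below. LAC against KO is therefore read as a difference between groups, and the part of lactate alone was not tested.

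The A subunit is known for favouring the step from pyruvate to lactate, which regenerates the NAD that glycolysis needs, while tetramers rich in the B subunit are known for the reverse step in tissues that burn lactate. MCT1 carries lactate in either direction along its gradient. MCT4 is the carrier of strongly glycolytic cells, where it serves lactate export. Stellate cells that turn into myofibroblasts are known to raise glycolysis, and the study asked what hexokinase 2, and lactate in its absence, contribute to that state.

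Levels are given in CPM, the authors' normalized counts per megaread. Each log2 fold change was taken after adding 1 CPM, and limma p-values were adjusted over all genes, with 0.05 as the threshold for a call. Estimated depth was 4.35 to 14.0 megareads per library. For Hk2 the QS libraries held 73.3, 66.7 and 73.5 CPM, ACT 181, 182 and 181 CPM, KO 10.7, 13.7 and 11.9 CPM and LAC 18.7, 19.6 and 19.7 CPM, so every library that received Cre lay below every library that did not. Depending on the comparison, 41% to 73.6% of all genes were called, and counts below are set beside that share. Markers of other liver cells also differed between groups. Summed over 20 macrophage markers, QS libraries held 7299 to 7361 CPM, ACT 15344 to 15683, KO 542 to 563 and LAC 3804 to 3845. Lyz2 held much of the ACT sum (mean 9350 CPM) and Mrc1 much of the KO sum (mean 387 CPM). Without Lyz2, an alternative added after the data were seen, the sums were 6801 to 6821 CPM in QS and 6179 to 6223 in ACT, then 471 to 490 in KO and 1573 to 1589 in LAC. Without Mrc1 as well, they were 5236 to 5312, 6009 to 6052, 90.9 to 95.8 and 1381 to 1404 CPM in that order of groups. In ACT against QS 11 of the 20 markers were called higher, beside 38% of all genes, and 7 lower, beside 35.5%. Clec4f, Timd4 and Marco were among the lower ones. In 16 endothelial markers the sums were 15513 to 16162, 697 to 731, 8212 to 9294 and 4360 to 4578 CPM in the same order. In 17 hepatocyte markers they were 2546 to 2576, 326 to 333, 387 to 407 and 117 to 125 CPM. Trf held most of the ACT and LAC sums (means of 449, 305, 81.4 and 121 CPM in the same order of groups). Means of Alb were 1128, 10.6, 157 and 0.601 CPM. In KO against ACT 16 of the 17 markers were called higher and 1, Trf, lower, beside 36% and 26.3% of all genes. No macrophage marker was at 0 throughout KO, but Adgre1, which defines mature macrophages, was at 2.19 to 3.61 CPM there. Hnf4a, Cps1, Cyp2e1 and 5 other hepatocyte markers were listed at 0 in all LAC libraries. Of the stellate cell markers, Reln and Lrat were highest in QS (1363 to 1384 and 340 to 363 CPM), Des was 20.2 to 27.3 CPM in QS and 342 to 350 CPM in ACT, and the 8 markers of activated cells summed to 411 to 450 CPM in QS and 15057 to 15117 CPM in ACT, with 3497 to 3693 in KO and 7183 to 7530 in LAC. In such bulk samples fewer cells of a type and less RNA per cell cannot be told apart.

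**Figure D1:**
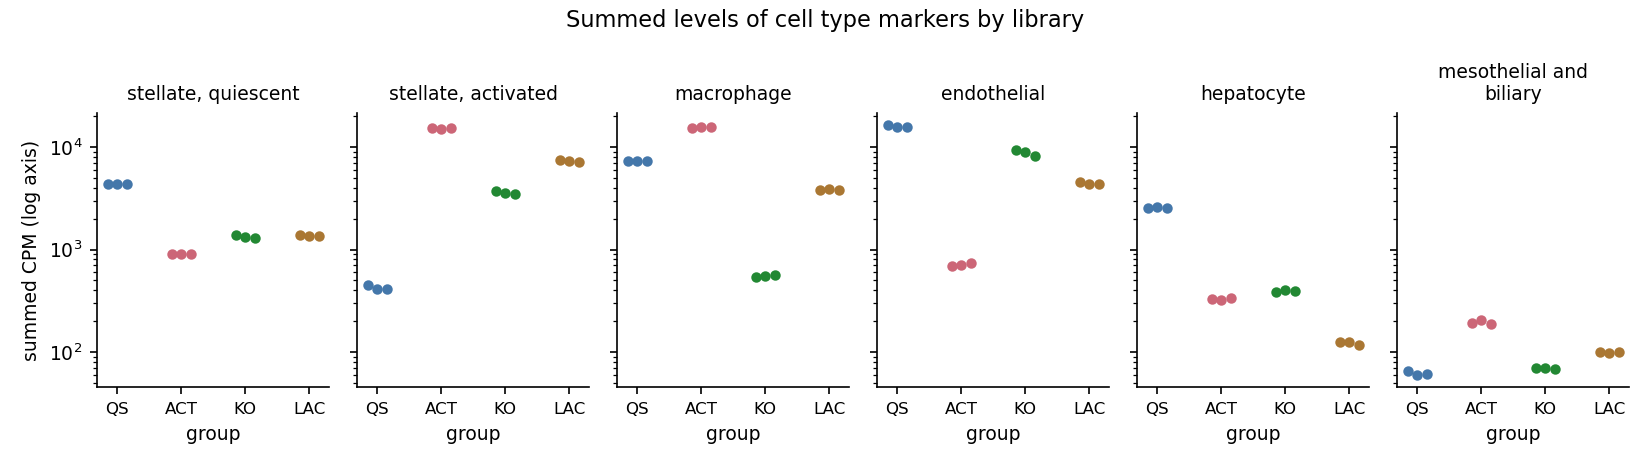
Summed CPM of each marker list (y axis, log scale) in each library (points) of the 4 groups (x axis). The macrophage sum, which Lyz2 dominates in ACT, was lower in the KO libraries than in any other. The endothelial sum was highest in QS and lowest in ACT.

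In the mm10 build (GENCODE M21) Ldha lies on chromosome 7 (46841475 to 46855627, plus strand), Ldhb on chromosome 6 (142490249 to 142507957, minus strand), Slc16a1 on chromosome 3 (104638668 to 104658462, plus strand), Slc16a3 on chromosome 11 (120948480 to 120960868, plus strand) and Bsg on chromosome 10 (79704491 to 79711969, plus strand). The annotation holds 2 processed pseudogenes of Ldha by name, and reads that match them as well cannot be assigned with certainty. Because Ldha and Slc16a3 had the same order of group means, as described below, their promoters are shown with those of Slc16a1 and Ldhb, which had other orders. Sequences are from RefSeq (GRCm38.p6) and end at the base before the start that RefSeq gives, 5′ to 3′ on the gene's strand. ACGTG on either strand is in capitals. It is a form of the core that hypoxia-inducible factors bind, the other form being GCGTG, and is also part of the E-box CACGTG bound by Myc. For Ldha and Slc16a3 that start lies inside the GENCODE gene span above, and for Slc16a1 a few bases before it. The sequences span chr7:46845554-46845803 (Ldha), chr11:120948817-120949052 (Slc16a3), chr3:104638414-104638663 (Slc16a1) and chr6:142507958-142508207 (Ldhb, minus strand). In Slc16a3 the last 14 bases before the start, which are exonic in another transcript of the gene, are not printed.
Ldha: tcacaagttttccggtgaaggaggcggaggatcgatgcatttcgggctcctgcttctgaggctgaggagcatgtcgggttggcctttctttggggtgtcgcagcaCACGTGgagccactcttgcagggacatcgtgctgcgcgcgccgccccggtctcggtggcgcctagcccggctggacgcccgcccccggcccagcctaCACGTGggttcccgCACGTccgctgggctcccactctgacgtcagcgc
Slc16a3: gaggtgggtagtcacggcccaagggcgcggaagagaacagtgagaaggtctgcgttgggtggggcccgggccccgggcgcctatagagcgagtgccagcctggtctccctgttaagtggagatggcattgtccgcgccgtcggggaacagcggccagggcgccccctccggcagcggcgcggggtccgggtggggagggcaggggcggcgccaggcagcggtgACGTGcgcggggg
Slc16a1: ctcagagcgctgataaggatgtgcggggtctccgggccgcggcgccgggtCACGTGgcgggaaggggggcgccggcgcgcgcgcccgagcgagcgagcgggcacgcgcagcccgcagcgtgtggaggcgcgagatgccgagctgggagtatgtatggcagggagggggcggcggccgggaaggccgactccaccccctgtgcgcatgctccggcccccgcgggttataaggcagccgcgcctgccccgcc
Ldhb: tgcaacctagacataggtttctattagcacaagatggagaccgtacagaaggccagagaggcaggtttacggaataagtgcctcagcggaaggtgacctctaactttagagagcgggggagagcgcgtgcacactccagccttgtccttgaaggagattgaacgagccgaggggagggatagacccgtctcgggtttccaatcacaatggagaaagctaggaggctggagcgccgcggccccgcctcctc
Over the 250 bases before the start, ACGTG on either strand occurred at 3 places in Ldha, beginning 145, 48 and 34 bases before the start, of which 2 were the full E-box CACGTG. Slc16a3 had it at 2 places, 27 and 14 bases before the start, the latter within the bases not printed, and neither was an E-box. Slc16a1 had a single E-box 200 bases before the start, and Ldhb had no ACGTG. A second Ldha promoter in the RefSeq table, further downstream, had none either. The form GCGTG, which the printed Ldhb and Slc16a1 sequences hold, was not counted. Matches that overlap were counted as 1 place. Of 32851 promoter windows of the same length in the table, 16.6% held ACGTG and 1.95% held it at 2 or more places, while 6.02% held CACGTG. These matches describe the letters only and do not show that a factor binds.

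Ldha was the most abundant of the 5 genes per length and was lowest in quiescent cells and highest in lactate-treated Hk2-deleted cells. The QS libraries held 278, 288 and 268 CPM, ACT 640, 632 and 651 CPM, KO 582, 586 and 596 CPM and LAC 756, 766 and 740 CPM. The 4 groups did not overlap, in the order QS, KO, ACT and LAC. Ldha rose 2.31-fold from QS to ACT (log2 fold change 1.20, SE 0.032, limma adjusted p = 2.07e-13). KO libraries held 91.8% of the ACT level (-0.12, 95% interval -0.19 to -0.054, limma adjusted p = 0.00414). This small fall was -0.19 after quantile normalization, -0.20 with median scaling, -0.21 with scaling over genes less than 5-fold apart between ACT and KO (a choice made after the data were seen) and -0.079 with scaling outside the markers of other cells, and was called in each. KO cells thus still held 2.12 times the QS level (limma adjusted p = 9.09e-13). In LAC, Ldha stood 28.1% above KO (0.36, limma adjusted p = 7.51e-07) and 17.7% above ACT (0.23, limma adjusted p = 2.90e-05). The excess over ACT was 0.14 with scaling over genes less than 5-fold apart (limma adjusted p = 0.00254). The macrophage and endothelial marker sums also differed between these groups, and their part in the course of Ldha was not tested.

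Ldhb differed little between groups and was lowest in LAC. The QS libraries gave 31.1, 30.8 and 34.7 CPM, ACT 34.2, 36.7 and 34.9 CPM, KO 29.8, 30.5 and 31.0 CPM and LAC 28.1, 28.1 and 24.3 CPM. QS overlapped with both ACT and KO, while LAC lay below all other libraries. Against QS the difference in ACT was 0.13 on the log2 scale (95% interval -0.04 to 0.30, limma adjusted p = 0.149). It was called with an equal total per library (0.21, limma adjusted p = 0.0272), after quantile normalization (0.23, adjusted p = 0.0172) and with the scaling over genes less than 5-fold apart (0.25, adjusted p = 0.0117), and was 0.067 with scaling outside the markers of other cells (adjusted p = 0.450). Ldhb fell from ACT to KO by 0.21 on the log2 scale (limma adjusted p = 0.0339). That call was lost without ACT replicate 2 (limma adjusted p = 0.114), ACT replicate 3 (0.0642), KO replicate 1 (0.0854) or KO replicate 2 (0.0642), and under 2 other scalings (0.0652 and 0.0840), over a range of adjusted p from 0.0051 to 0.114. LAC against KO was -0.18 (95% interval -0.35 to -0.01, limma adjusted p = 0.0847). The scaling outside the markers of other cells gave -0.21 and called it (limma adjusted p = 0.0451), while without LAC replicate 3 it was -0.11 (adjusted p = 0.314). From ACT to LAC it fell to 76.1% of the ACT level (-0.38, SE 0.078, limma adjusted p = 9.26e-04). Against QS, LAC was 83.4% (-0.26, limma adjusted p = 0.00924). This call was lost without LAC replicate 3 (limma adjusted p = 0.0509) and with an equal total per library (-0.16, adjusted p = 0.0791). Between 128 and 484 estimated reads stood behind each Ldhb value, a counting error of 4.55% to 8.82%, which is of the size of several of these differences.

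**Figure D2:**
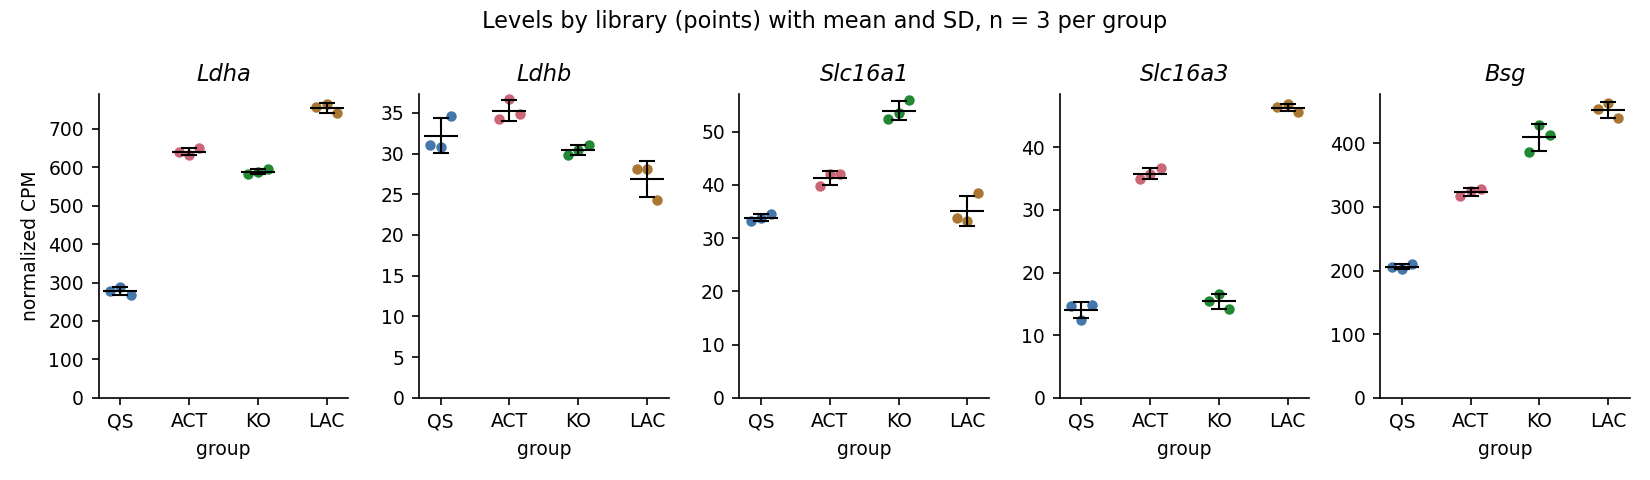
Normalized CPM (y axis, from 0) of the 5 genes in each library (points) of the 4 groups (x axis), with mean and SD (n = 3). Slc16a3 was low in QS and KO and high in ACT and LAC, Slc16a1 was highest in KO, and Bsg was higher in each group in the order QS, ACT, KO and LAC.

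The balance of the subunits was least tilted to Ldha in QS and most in LAC. QS libraries had an Ldha to Ldhb ratio of 7.72 to 9.34, ACT of 17.2 to 18.7, KO of 19.2 to 19.5 and LAC of 26.9 to 30.5. No group overlapped with another, and the ratio in LAC was 28.2 ± 1.97 (SD, n = 3) against 19.3 ± 0.184 in KO. A ratio within a library does not depend on its scaling. Per kilobase of the longest principal transcript, Ldhb made up a mean of 13.6% of both subunits in QS (12.7% to 14.9%) and 6.94% in ACT, with 6.55% in KO and 4.60% in LAC (n = 3 each).

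Slc16a3, the gene of the exporter MCT4, had the widest range of the 5 genes relative to its QS level and separated ACT and LAC from QS and KO. QS gave 14.7, 12.5 and 14.8 CPM, ACT 34.9, 35.7 and 36.7 CPM, KO 15.4, 16.6 and 14.2 CPM and LAC 46.4, 46.8 and 45.7 CPM. QS and KO overlapped, whereas ACT and LAC lay above both and apart from each other. From QS to ACT the gene rose 2.56-fold (log2 fold change 1.30, SE 0.086, limma adjusted p = 5.77e-09). In KO it fell to 43.2% of the ACT level (-1.16, limma adjusted p = 3.32e-08). The remaining difference between KO and QS was 0.13 (95% interval -0.05 to 0.32, limma adjusted p = 0.174), and it was called with an equal total per library (0.24, adjusted p = 0.0217) and after quantile normalization (0.21, adjusted p = 0.0367). It was 0.060 without QS replicate 2, 0.083 without KO replicate 2 and 0.082 with median scaling, not called in any of these. In LAC, Slc16a3 was 199.7% above KO (1.53, limma adjusted p = 6.02e-09) and at 129% of the ACT level (0.36, limma adjusted p = 0.00296). From ACT to KO the macrophage marker sum went down and from KO to LAC up, also without Lyz2 and without Lyz2 and Mrc1. From QS to ACT it was higher over all markers and without both genes, and lower without Lyz2 alone. The marker sum was at most 3845 CPM in LAC and at least 15344 CPM in ACT, while Slc16a3 was higher in LAC. The sum was also higher in QS than in LAC, while Slc16a3 was 3.31-fold higher in LAC than in QS. In LAC against QS 3 of the 20 markers were called higher and 16 lower, beside 37.4% and 36.2% of all genes. The part of macrophages in the course of Slc16a3 was not tested.

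Slc16a1, the gene of MCT1, went the other way at both steps after activation. It stood at 33.3, 33.8 and 34.5 CPM in QS and at 39.7, 42.1 and 42.0 CPM in ACT. KO gave 52.3, 53.6 and 56.0 CPM and LAC 33.8, 33.1 and 38.4 CPM. KO lay above every other library, and LAC overlapped with QS. The gene rose by 21.9% from QS to ACT (log2 fold change 0.28, limma adjusted p = 0.00185) and by a further 30.7% from ACT to KO (0.38, SE 0.067, limma adjusted p = 2.16e-04). In LAC it was 65.1% of the KO level (-0.61, limma adjusted p = 6.19e-06). It was then below ACT as well (-0.23, limma adjusted p = 0.0108), a call lost without LAC replicate 2 (-0.19, adjusted p = 0.0527). Between LAC and QS the difference was 0.05, with a 95% interval from -0.10 to 0.19 (limma adjusted p = 0.525), and it was -0.015 without LAC replicate 3. Endothelial markers were also higher in KO than in ACT and lower again in LAC, but were highest in QS, where Slc16a1 was low. Their part in the course of Slc16a1 was not tested.

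The order of the carriers differed between groups. QS libraries had a ratio of Slc16a3 to Slc16a1 of 0.369 to 0.441, ACT of 0.849 to 0.877, KO of 0.254 to 0.311 and LAC of 1.19 to 1.41. Each group stood apart from the other groups, and LAC held the only libraries with more Slc16a3 than Slc16a1. Per kilobase of the longest principal transcript, Slc16a3 was 3.23 ± 0.303 CPM in QS and 8.25 ± 0.211 in ACT, with 3.56 ± 0.277 in KO and 10.7 ± 0.130 in LAC, against 7.65 ± 0.135, 9.33 ± 0.301, 12.2 ± 0.420 and 7.93 ± 0.643 CPM for Slc16a1 (SD, n = 3).

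**Figure D3:**
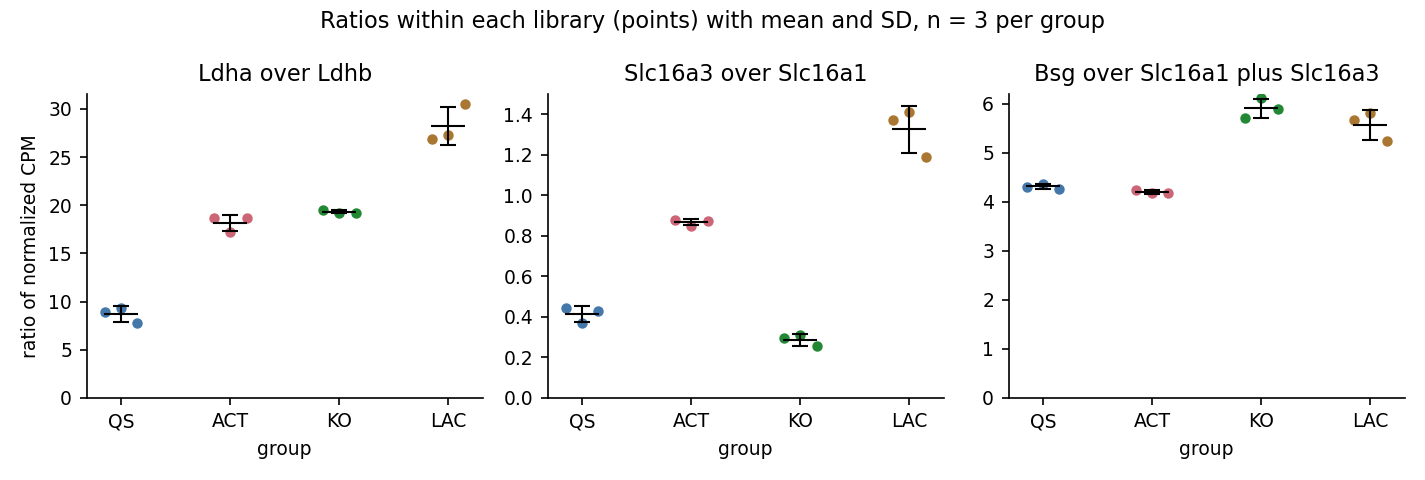
Ratio of normalized CPM (y axis, from 0) within each library (points) of the 4 groups (x axis), with mean and SD (n = 3): Ldha over Ldhb, Slc16a3 over Slc16a1, and Bsg over the sum of both carriers. The first ratio was highest in LAC at 26.9 to 30.5, and the second exceeded 1 in the LAC libraries and in no other group.

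Bsg, the gene of the chaperone, was higher in each group in the order QS, ACT, KO and LAC. QS libraries held 206, 202 and 210 CPM, ACT 317, 326 and 328 CPM, KO 387, 429 and 413 CPM and LAC 455, 464 and 439 CPM. The groups did not overlap. Activation was accompanied by a 1.57-fold rise (log2 fold change 0.65, SE 0.040, limma adjusted p = 2.26e-09). KO stood 26.6% above ACT (0.34, limma adjusted p = 4.38e-06), and LAC was 10.5% above KO (0.14, limma adjusted p = 0.00988) and 39.9% above ACT (0.48, limma adjusted p = 1.70e-07). Relative to the sum of both carriers, Bsg was 4.27 to 4.36 in QS and 4.17 to 4.24 in ACT, and higher in KO (5.71 to 6.11) and LAC (5.23 to 5.81), which overlapped. Bsg thus rose from ACT to KO although Slc16a3 fell. Per kilobase it was 135 ± 2.73 CPM in QS and 297 ± 8.17 CPM in LAC (SD, n = 3), far above either carrier, and it is known to pair with other membrane proteins too.

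Counted over the 5 genes, 4 were called in ACT against QS, all higher, where 73.5% of all genes were called (38% higher, 35.5% lower, limma). In KO against ACT all 5 were called, 2 higher and 3 lower, beside 62.4% of all genes (36% and 26.3%). In LAC against KO 4 were called, 3 higher and 1 lower, beside 41% (20% and 21%), and in LAC against ACT 5, 3 higher and 2 lower, beside 49.5% (27.8% and 21.7%). Against QS, 3 were called in KO, all higher (73% of all genes, 37.4% higher and 35.7% lower), and 4 in LAC, 3 higher and 1 lower (73.6%, 37.4% and 36.2%). With 5 genes such counts are coarse, and no more is read from them. The median log2 fold change of the members was 0.65 in ACT against QS, -0.12 in KO against ACT and 0.14 in LAC against KO, beside 0.03, 0.07 and -0.02 over all genes. These comparisons share libraries. The libraries of both groups were apart for 4 of the 5 genes between ACT and QS (76.3% of all genes), 5 between KO and ACT (69.2%), 5 between LAC and KO (52.2%), 5 between LAC and ACT (62.8%), 3 between KO and QS (72.5%) and 4 between LAC and QS (74.9%). In each such case a two-sided exact permutation test gave its lowest possible value with 3 libraries a side, p = 0.10.

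**Figure D4:**
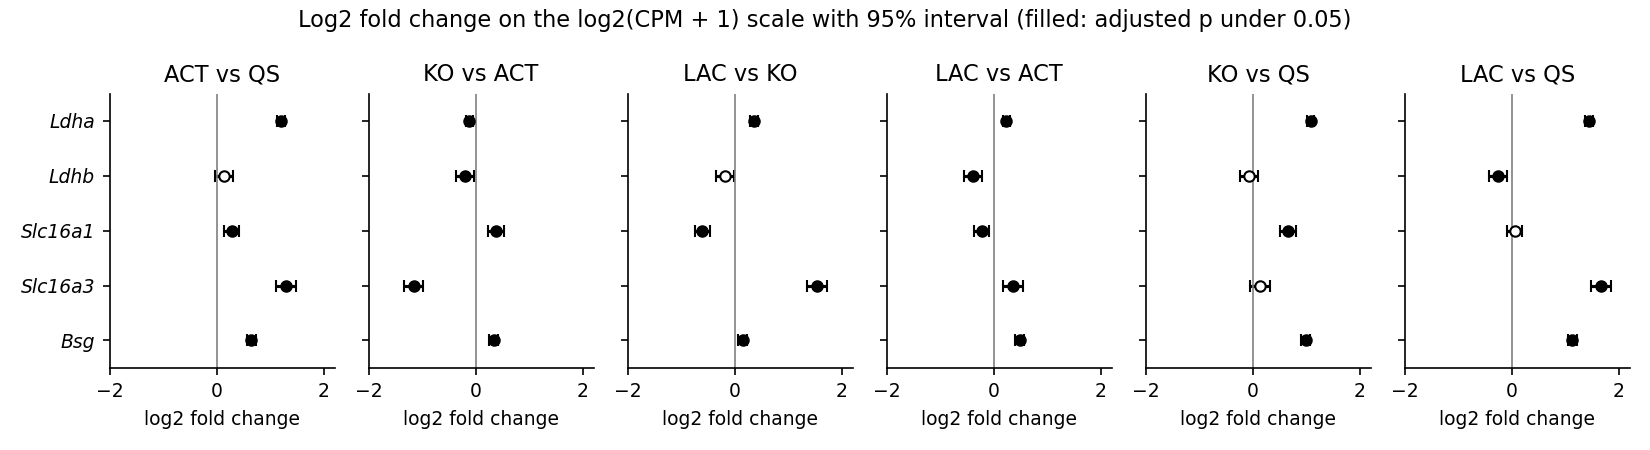
Log2 fold change on a scale of log2(CPM + 1) (x axis) with its 95% interval for the 5 genes (y axis) in 6 comparisons, filled where the limma adjusted p was under 0.05. Slc16a3 and Slc16a1 lie on opposite sides of 0 in KO vs ACT (-1.16 and 0.38) and in LAC vs KO (1.53 and -0.61).

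Other carriers and chaperones of the same families changed in both directions. Of 12 further SLC16 genes 8 were measured, and in KO against ACT 4 fell and 2 rose. In ACT against QS 3 rose and 4 fell, and in LAC against KO 3 rose and 1 fell. Over all genes the shares called were 73.5% in ACT against QS, 62.4% in KO against ACT and 41% in LAC against KO. The list's median log2 fold changes were -0.39, -0.59 and 0.09 in these comparisons, beside 0.03, 0.07 and -0.02 over all genes. Slc16a7, the gene of the high-affinity lactate and pyruvate carrier MCT2, was 8.58 to 10.1 CPM in QS and 18.0 to 21.1 CPM in ACT, with 0.494 to 1.01 in KO, a few reads per library, and 5.10 to 5.74 in LAC. The groups did not overlap, and the log2 fold change from ACT to KO was -3.50 (limma adjusted p = 9.57e-11). Slc16a10, which carries aromatic amino acids, was at 60.7 ± 3.87 CPM in QS and 91.8 ± 4.65 in ACT. It was 5.23 ± 1.40 CPM in KO and 24.1 ± 0.853 in LAC. Slc16a9 and Slc16a12 were instead highest in QS, at 43.5 ± 2.24 and 9.13 ± 1.42 CPM. In ACT they were at 5.83 ± 0.399 and 0.394 ± 0.244 CPM. The endothelial and hepatocyte marker sums were also highest in QS and lower in ACT, and their part was not tested. Emb, which encodes embigin, a relative of basigin that also escorts carriers, was 1.22 to 4.62 CPM in QS and 40.2 to 47.3 CPM in ACT, with 6.72 to 8.12 in KO and 14.1 to 20.3 in LAC. Nptn, a further relative of basigin, was 176 ± 5.58 CPM in QS and 314 ± 3.81 in ACT, with 177 ± 5.98 in KO and 254 ± 10.3 in LAC. Both fell in KO and rose in LAC, which is the course of Slc16a3 and not that of Bsg. Slc16a7 and Slc16a10 also fell in KO and rose in LAC. The macrophage marker sum had the same direction at these steps, and its part in the course of these genes was not tested. Among 4 other genes related to lactate dehydrogenase 1 was measured, Uevld, which fell in KO (-0.67, limma adjusted p = 0.00114).

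Genes that make pyruvate or use it otherwise changed in both directions. Of 10 measured genes of pyruvate formation and transamination, 5 rose and 3 fell in ACT against QS, 5 rose and 2 fell in KO against ACT, and 3 rose and 1 fell in LAC against KO, beside 73.5%, 62.4% and 41% of all genes called. The medians were 0.34, 0.32 and -0.12. Pcx, which encodes pyruvate carboxylase, rose from 12.9 ± 2.12 CPM in ACT to 32.8 ± 2.19 in KO (log2 fold change 1.29, limma adjusted p = 2.80e-06). Got2, a mitochondrial aminotransferase of the malate-aspartate shuttle, went from 83.9 ± 3.39 CPM in QS to 168 ± 5.61 in ACT, 354 ± 12.1 in KO and 277 ± 7.89 in LAC. Mdh2, the malate dehydrogenase of mitochondria, rose with activation from 66.5 ± 1.07 to 155 ± 1.22 CPM and was 139 to 170 CPM in KO (limma adjusted p = 0.953 against ACT). Pklr, a pyruvate kinase of hepatocytes, was 13.5 ± 0.516 CPM in QS and listed at 0 in every ACT and LAC library. For the entry of pyruvate into mitochondria 14 genes were measured, of which 5 rose and 4 fell in ACT against QS, 3 rose and 2 fell in KO against ACT, and 1 rose and 4 fell in LAC against KO, beside the same shares of all genes (73.5%, 62.4% and 41%). The medians were 0.06, 0.07 and -0.18. Pdk4, a kinase that shuts off pyruvate dehydrogenase, was 85.7 ± 3.63 CPM in QS and 39.5 ± 0.732 in ACT, with 133 ± 5.21 in KO and 105 ± 2.19 in LAC. Its rise from ACT to KO (1.73, limma adjusted p = 5.88e-13) was the largest in this list, and its relative Pdk3 fell at the same step (-0.62, limma adjusted p = 2.38e-04). Pdha1, a subunit of pyruvate dehydrogenase, rose with activation (1.00) and was not called in KO against ACT (0.02, limma adjusted p = 0.720). Glo1 and Hagh, which turn methylglyoxal into D-lactate, were not called in any of these 3 comparisons.

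**Figure D5:**
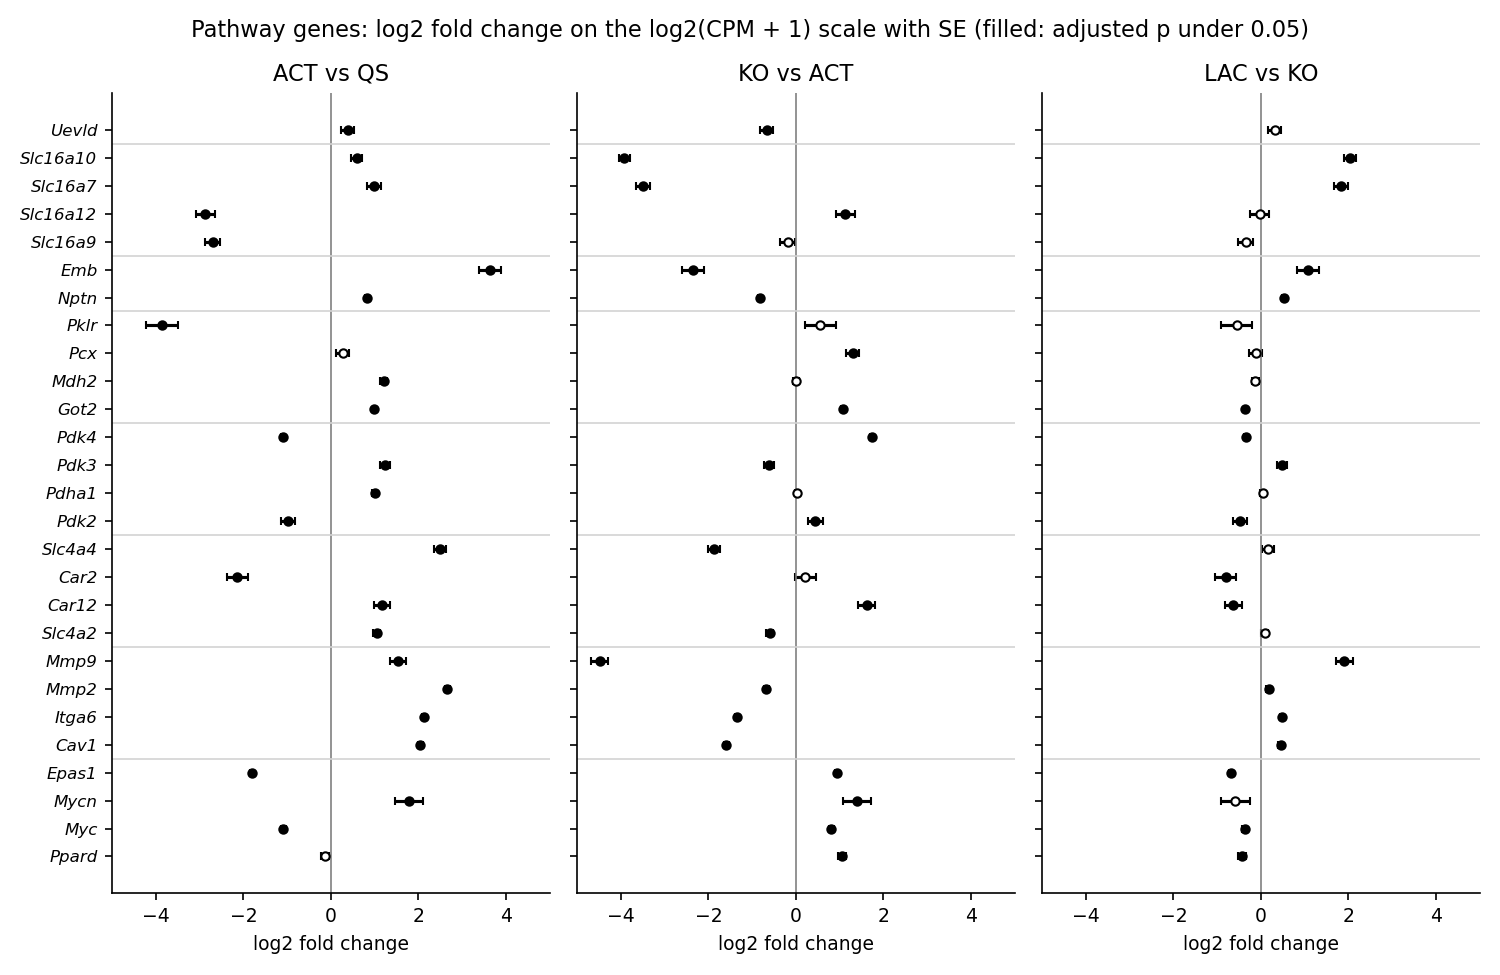
Log2 fold change on a scale of log2(CPM + 1) (x axis) with SE for the named pathway genes (y axis, grey lines between lists) in ACT vs QS, KO vs ACT and LAC vs KO, filled where the limma adjusted p was under 0.05. Slc16a10, Slc16a7, Emb and Mmp9 fell in KO vs ACT and rose in LAC vs KO, while Pdk4 and Got2 rose and then fell.

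Lactate leaves the cell with a proton, and genes of proton and bicarbonate handling were measured in 8 of 12 cases. In ACT against QS 5 rose and 3 fell, in KO against ACT 1 rose and 4 fell, and in LAC against KO 1 rose and 2 fell, where 73.5%, 62.4% and 41% of all genes were called. Their median log2 fold changes were 0.77, -0.39 and 0.12. Slc4a4, a sodium bicarbonate cotransporter gene, was 4.28 ± 0.864 CPM in QS and 28.5 ± 1.63 in ACT, with 7.03 ± 0.913 in KO and 7.90 ± 0.254 in LAC, so unlike Slc16a3 it was not called in LAC against KO (0.15, limma adjusted p = 0.411). Car12, which encodes a carbonic anhydrase of the cell surface, rose from 1.60 to 2.87 CPM in ACT to 8.15 to 9.63 CPM in KO. Among 14 genes of proteins reported to pair with or respond to basigin, 11 rose and 2 fell in ACT against QS, 4 rose and 9 fell in KO against ACT, and 6 rose and 4 fell in LAC against KO, with medians of 0.89, -0.37 and 0.07. The background was 38% of genes higher and 35.5% lower in the first comparison, 36% and 26.3% in the next, and 20% and 21% in the last. Mmp9, the gene of a matrix protease, was 34.3 ± 2.26 CPM in ACT, 0.246 to 1.10 in KO and 4.91 ± 0.587 in LAC. Of the 20 macrophage markers, 18 were called lower and 1 higher in KO against ACT, and 15 higher and 2 lower in LAC against KO. Adgre1 (means of 364, 2.84 and 67.4 CPM) and Cybb (927, 7.24 and 251 CPM) had the order of Mmp9 in these groups. Mrc1 (170, 387 and 188 CPM) did not. In QS the means were 11.3 CPM for Mmp9 and 322 CPM for Adgre1. The part of macrophages in the course of Mmp9 was not tested. Itga6, an integrin subunit gene, was 42.5 ± 0.885 CPM in QS and 188 ± 3.57 in ACT, with 73.3 ± 2.66 in KO and 103 ± 2.92 in LAC, and Cav1, the gene of caveolin 1, had the same order.

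Transcription factors known to act on Ldha or the carriers were followed too, 11 of 13 measured. In ACT against QS 1 rose and 6 fell, in KO against ACT 8 rose and 1 fell, and in LAC against KO 1 rose and 4 fell. Of all genes 38% rose and 35.5% fell in ACT against QS, 36% and 26.3% in KO against ACT, and 20% and 21% in LAC against KO. The list's medians were -0.49, 0.26 and -0.15. Hif1a, looked at after its values were seen because ACGTG is a form of the core its product binds, was 566 to 598 CPM in QS and 306 to 323 in ACT, with 208 to 236 in KO and 294 to 313 in LAC. It fell in KO (-0.50, limma adjusted p = 3.12e-07), rose in LAC (0.46, limma adjusted p = 2.16e-06) and was highest in QS. Ldha and Slc16a3 also fell in KO and rose in LAC, and were lowest in QS. A part of Hif1a in their course was not tested. Epas1, the gene of the related factor HIF-2 alpha that is abundant in endothelium, was 804 to 831 CPM in QS and 230.1 to 236.5 in ACT, with 446 ± 23.4 in KO and 278 ± 10.9 in LAC. That is the order of the endothelial marker sums, whose part was not tested. Myc was 117 ± 1.60 CPM in QS and 54.5 ± 3.62 in ACT, with 96.0 ± 2.50 in KO and 73.8 ± 4.20 in LAC. Its order of groups was also that of the endothelial marker sums, and their part in the course of Myc was not tested. RNA levels of such factors do not give the amount or activity of the protein.

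The genes whose course over the 12 libraries was most like that of each member were sought among 9195 genes of at least 10 CPM on average, by the Pearson correlation of log2(CPM + 1). The points share their 4 groups, so the values describe the course and carry no test. Ldha was matched most closely by Prl2c2 (r = 0.998), Egfr (0.997) and Inhba (0.997). Inhba, which encodes a subunit of activin, was 24.2 ± 1.85 CPM in QS and 433 ± 8.23 in ACT, with 286 ± 11.2 in KO and 599 ± 10.7 in LAC, the order of Ldha over a wider range. Prl2c2, and Serpinb9e below, have close copies in the mouse genome, so their values are uncertain. For Slc16a3 the nearest were Flrt3 (0.968), Wwp1 (0.967) and Arhgap24 (0.966). Flrt3 was 32.3 ± 2.77 CPM in ACT, 1.85 ± 0.308 in KO and 36.8 ± 6.10 in LAC. Slc16a1 was followed by Slc7a11 (0.972), the gene of the cystine and glutamate exchanger, at 23.6 ± 2.14 CPM in QS and 49.6 ± 1.98 in ACT, with 83.1 ± 3.46 in KO and 29.1 ± 2.93 in LAC, and by Abcb1b (0.965) and Mrfap1 (0.951). Bsg was matched by Serpinb9e (0.996), Cacnb2 (0.995) and Arhgap18 (0.995). Ldhb, with its small differences, had looser matches in Pepd (0.880), Adcyap1r1 (0.876) and Tubgcp4 (0.874). Among the members themselves the highest value was 0.929 between Ldha and Bsg, followed by 0.759 between Ldha and Slc16a3, and Slc16a1 against Slc16a3 gave -0.304.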

How the data were processed

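The 12 RNA-seq libraries came from a stranded mRNA kit, per the labels' protocols. The submitters' processing notes name kallisto 0.44.0, edgeR 3.8, cutadapt 1.18 and FastQC 0.11.8 and the mm10 build, without their roles. The deposited table holds 12081 genes as normalized CPM, treated as a signal because its column totals run from 959233 to 1047042, more than plain CPM allows in some libraries. How the authors scaled it is not given in the sources used here. Only 19.7% to 25.7% of values came out as whole reads (tolerance 0.01), and count models were therefore not used. Estimated depth rests on the lowest values that recur across genes. Replicates were kept apart, since chi-square per gene between them was 2.15 to 7.27, above counting noise.

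Group and replicate number came from the titles. The test was limma 3.58.1 (R 4.3.3) on log2 of CPM plus 1, fitting 4 group means to 12 libraries (8 residual degrees of freedom), with moderation along the intensity trend and Benjamini-Hochberg adjustment over all genes in each of 6 comparisons, and was checked on simulated data. The members and lists were chosen with earlier results of these data known. The 9 lists held 87 pathway genes, 70 of them measured. Values were given for up to 4 called genes per list with the largest change in ACT vs QS or KO vs ACT, and for the 3 nearest patterns per member. Hif1a was added outside this rule after the data were seen. No explanation was tested.

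Alternatives were pseudocounts of 0.1, 0.5 and 5, a filter of 5 CPM in 3 libraries, other scalings, the replicate number as a block, 2 groups in the fit, no trend, library weights, an adjusted p under 0.01 and leaving out each library. Gene positions and transcript lengths came from GENCODE M21, promoters from RefSeq.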

Additional observations from a re-analysis of the deposited data

How the results depend on the processing

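For the 5 genes, 30 fold changes were recomputed under 26 alternatives. Of these 780 values 759 kept direction and call, 11 lost a call, 6 gained one and 0 called values reversed. In 4 the sign changed for a difference that was never called, Ldhb in KO vs QS (equal total, quantile normalization) and Slc16a1 in LAC vs QS (scaling outside the markers of other cells, without LAC replicate 3). The lost and gained calls concern Ldhb, Slc16a1 in LAC vs ACT and Slc16a3 in KO vs QS, and apart from the stricter threshold of 0.01 are given beside those results. The cause was not tested. Adding 1 CPM before taking ratios moved the log2 ratio of Ldha to Ldhb in KO to 4.23 from 4.27, and that of Bsg to both carriers to 2.08 from 2.11 in QS and to 2.06 from 2.07 in ACT. Scaling over genes under 5-fold apart between ACT and KO, chosen after the data were seen, lowered the share of higher genes among those called in LAC vs ACT from 56.2% to 44.6%, and in KO vs ACT from 57.8% to 49.2%. Median scaling raised it in LAC vs KO from 48.7% to 57.5%.

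Replicate numbers were shared by all groups, and correlations of same-numbered libraries ran from -0.116 to 0.234, with 4 of 18 over 0.1. The highest was that of replicate 1 in QS and KO. Differently numbered libraries were not compared, so whether the numbers pair the libraries was not settled. With the replicate number as a block, 8893 genes were called in ACT vs QS, 7542 in KO vs ACT and 4935 in LAC vs KO, against 8881, 7533 and 4957 without it, and members called stayed at 4, 5 and 4. Depth limits Ldhb and Slc16a3 most, with counting errors of up to 8.82% and 13.9% in a library.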
